A study of Homo sapiens with 12 samples.

Results

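Huh7 is a widely used human hepatoma line. Molidustat blocks the prolyl hydroxylases, enzymes whose activity leads to breakdown of the α subunits of the hypoxia-inducible factors (HIF). The 9 genes described here encode the 3 enzymes of serine synthesis (PHGDH, PSAT1 and PSPH) and 6 enzymes of the folate one-carbon pathway (SHMT1, SHMT2, MTHFD1, MTHFD2, MTHFD1L and ALDH1L2). They were chosen by name, as the rows whose Ensembl identifier carries one of these symbols in GENCODE release 44, and make up 9 of the 60666 genes listed for each library. Cells grown in medium with glucose, serum and antibiotics received 25 µM Molidustat or DMSO alone for 24 h or 48 h. Each of the 4 groups (DMSO 24 h, Molidustat 24 h, DMSO 48 h and Molidustat 48 h) has 3 libraries, which makes 12 libraries of 1 cell line. The record speaks of RNA extracted in triplicate and the methods of biological replicates, so the p-values measure the spread between these samples, which may be technical. The libraries were read from the 3′ end of polyadenylated transcripts, and reads were counted per gene.

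Serine is made from 3-phosphoglycerate, an intermediate of glycolysis, in consecutive steps of oxidation (PHGDH), transamination (PSAT1) and dephosphorylation (PSPH). The serine hydroxymethyltransferases SHMT1 in the cytosol and SHMT2 in mitochondria split serine into glycine and a one-carbon unit, which is carried by tetrahydrofolate. MTHFD1 in the cytosol and MTHFD2 and MTHFD1L in mitochondria interconvert the oxidation states of that unit down to formate, and ALDH1L2 oxidizes mitochondrial 10-formyl-tetrahydrofolate to carbon dioxide. The one-carbon units are used for purines, thymidylate and the methionine cycle, and several of these genes are known targets of ATF4, the transcription factor of the amino acid response.

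None of the 9 genes was called changed with Molidustat at either time, where 0.231% of all genes tested were called at each, so that a count of 0 is near the background. A gene was called when its Benjamini-Hochberg adjusted p in edgeR's quasi-likelihood test was under 0.05 and its log2 fold change was beyond 1. In the same libraries PGK1, the glycolytic enzyme that makes 3-phosphoglycerate, was higher with Molidustat at both times. MTHFD1 had the lowest of the 9 fold changes at 48 h. Its groups did not overlap, as for 18.0% of all genes, and its adjusted p passed the threshold by DESeq2 with 12 libraries (0.0446) but not by edgeR. For PHGDH the log2 fold change between 24 h and 48 h was 0.90 in DMSO and 1.11 in Molidustat, which edgeR did not call with 12 libraries (adjusted p = 0.541 and 0.925).

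The libraries held 1499273 to 9179389 counts on genes, and the 9 genes took 0.0403 to 0.0658% of them. DMSO 48 h replicate 2, the smallest, stood apart. Reads matched to no counted feature, which need not lie outside genes, were 50.4% of those listed for it and 17.1 to 25.6% for the rest. Genes of the mitochondrial genome took 0.969% of the counts of this library, against 1.46 to 3.80%. Its scaling factor by the trimmed mean of M-values (TMM) was 0.629. Results are therefore given for all 12 libraries and for the 11 without it. Levels are given as CPM, the counts scaled to a common library total, after TMM scaling. Because only the 3′ end is counted, CPM of a gene, sums of CPM over genes and ratios of genes were compared between libraries and not between genes. Where a gene is picked from a list as highest by CPM, this orders 3′ counts and is no comparison of transcript levels between genes.

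The labelled cell line was checked against liver markers. All 10 hepatocyte and hepatoma markers were detected in every library, with a summed level of 9362 to 31170 CPM. AFP, the fetal liver protein retained by many hepatomas, reached 3891 to 10280 CPM. Of 10 markers of immune, endothelial, fibroblast and cholangiocyte cells, the T cell gene CD3E and the endothelial gene VWF were at 0 in all libraries, and 3 to 7 of the 10 were at 0 in each library. Their summed level was 6.36 to 124 CPM. KRT19, a cholangiocyte keratin also made by some hepatomas, had the highest CPM of them, except in DMSO 48 h replicate 2, where it was at 2.12 CPM, as were CD68 and COL1A2.

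**Figure D1:**
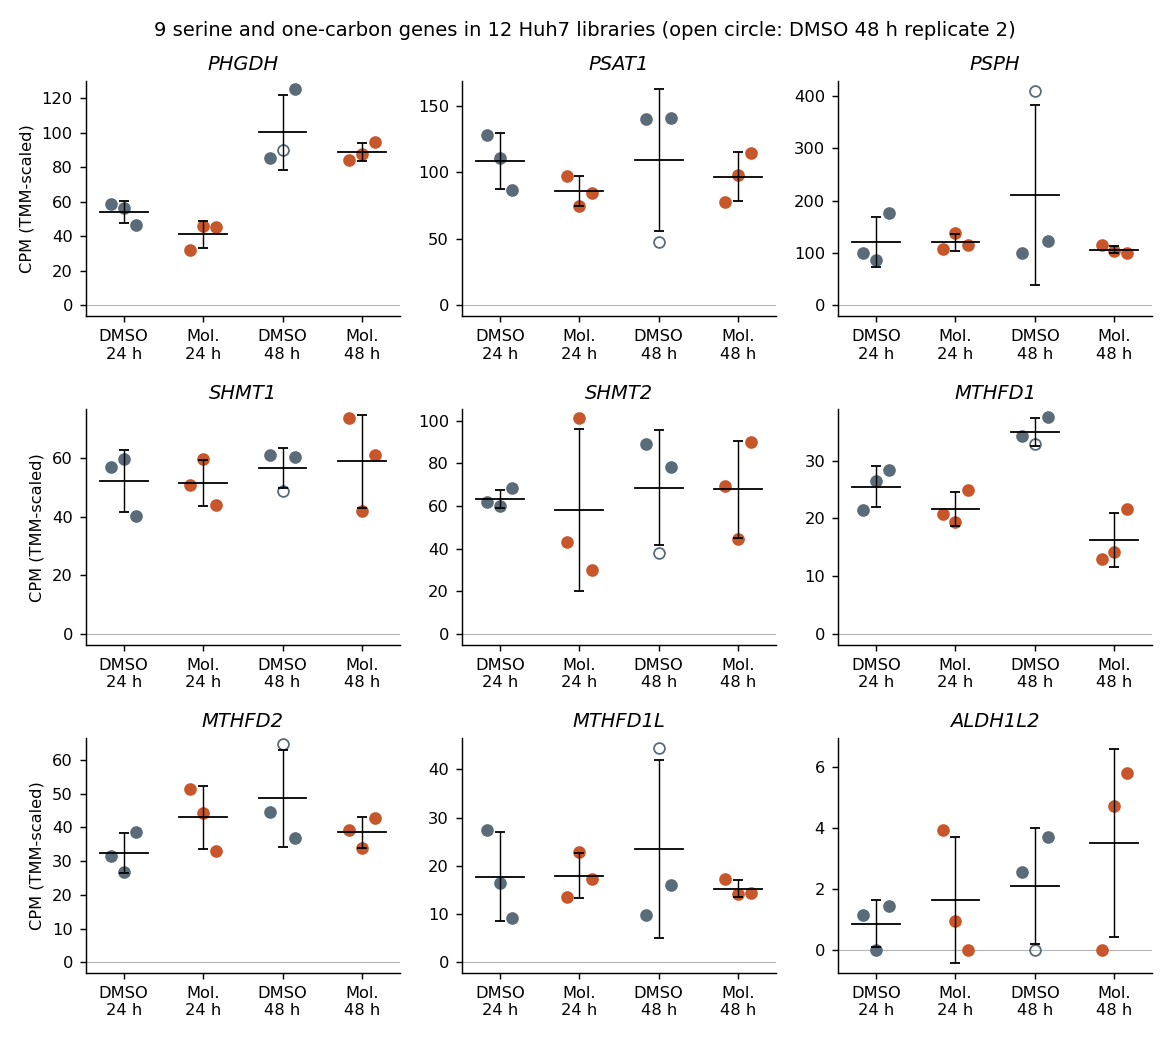
CPM of the 9 genes (vertical axes, linear scale, TMM-scaled) in each of the 12 libraries, by treatment and time, with bars for the mean and SD of 3 libraries and an open circle for DMSO 48 h replicate 2. All 6 PHGDH points at 48 h (84.4 to 125 CPM) sit above all 6 at 24 h (32.2 to 58.6 CPM), and the MTHFD1 points of Molidustat 48 h sit below those of DMSO 48 h.

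PHGDH, the dehydrogenase that commits 3-phosphoglycerate to serine, measured 58.6, 56.1 and 46.5 CPM in the DMSO libraries and 32.2, 45.7 and 45.2 CPM in the Molidustat libraries at 24 h. The 48 h libraries measured 85.1, 90.1 and 125 CPM with DMSO and 84.4, 87.6 and 94.5 CPM with Molidustat. The treatments did not overlap at 24 h, by a gap of under 1 CPM, and overlapped at 48 h. The log2 fold change with Molidustat was -0.38 ± 0.29 (SE, adjusted p = 0.999) at 24 h and -0.18 ± 0.29 (adjusted p = 0.853) at 48 h. The 95% intervals were -0.99 to 0.23 and -0.78 to 0.43, so an increase beyond 1.35-fold lay outside both.

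PSAT1, the aminotransferase of the second step, gave 128, 111 and 86.8 CPM with DMSO and 97.6, 75.0 and 84.8 CPM with Molidustat at 24 h. At 48 h the DMSO libraries gave 140, 47.7 and 141 CPM and the Molidustat libraries 77.7, 98.3 and 115 CPM. The low value is that of replicate 2, and without it the groups at 48 h did not overlap. The log2 fold change at 48 h was -0.19 ± 0.37 (adjusted p = 0.878) with 12 libraries and -0.55 ± 0.27 (adjusted p = 0.765) without DMSO 48 h replicate 2, and at 24 h it was -0.34 ± 0.37 (adjusted p = 0.999).

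PSPH, the phosphatase of the last step, was at 86.8 to 177 CPM in the DMSO and 108 to 138 CPM in the Molidustat libraries at 24 h. In the 48 h libraries it was 101, 410 and 122 CPM with DMSO and 114, 104 and 100.3 CPM with Molidustat. The 410 CPM of replicate 2 was the highest PSPH value of all libraries. The log2 fold change at 48 h was -0.97 ± 0.46 (adjusted p = 0.374) with all libraries and -0.082 ± 0.30 (adjusted p = 0.997) without that library. Its pseudogene PSPHP1 was at 3.18 CPM in DMSO 48 h replicate 2, at 40.8 and 47.9 CPM in the other DMSO libraries and at 66.7 to 92.8 CPM with Molidustat at 48 h. Reads may have been divided between PSPH and this copy, so both counts are uncertain.

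Cytosolic SHMT1 ranged from 40.1 to 60.9 CPM over the DMSO libraries and from 41.9 to 73.6 CPM over the Molidustat libraries. Its log2 fold change was -0.017 ± 0.31 (95% interval -0.67 to 0.64) at 24 h and 0.050 ± 0.31 (95% interval -0.61 to 0.71) at 48 h. Mitochondrial SHMT2 gave 61.8, 59.9 and 68.3 CPM with DMSO and 43.2, 101 and 30.1 CPM with Molidustat at 24 h, so the treated libraries lay on both sides of the controls. The 48 h libraries gave 89.3, 38.2 and 78.6 CPM with DMSO and 69.4, 44.5 and 90.0 CPM with Molidustat. The SHMT2 fold changes were -0.12 ± 0.44 and -0.031 ± 0.44 on the log2 scale, with intervals of -1.04 to 0.81 and -0.96 to 0.90. Without DMSO 48 h replicate 2, which gave the 38.2 CPM, the value at 48 h was -0.31 ± 0.40 for SHMT2 and -0.052 ± 0.31 for SHMT1. Within a library, the log2 ratio of SHMT2 to SHMT1 ranged from -0.54 to 0.77, and the groups overlapped at both times. SMCR8, which overlaps an exon of SHMT1 on the opposite strand, had 962 counts over all libraries against 3298 for SHMT1.

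MTHFD1, the trifunctional enzyme of the cytosol, measured 21.5, 26.5 and 28.4 CPM with DMSO and 20.7, 19.3 and 24.9 CPM with Molidustat at 24 h. At 48 h it measured 34.3, 32.9 and 37.6 CPM with DMSO and 13.0, 14.1 and 21.7 CPM with Molidustat. All 3 treated libraries at 48 h lay below all 3 controls. The log2 fold change at 48 h was -1.10 ± 0.34 (unadjusted p = 0.00585 in edgeR's quasi-likelihood test, adjusted p = 0.208), and -1.15 ± 0.36 (adjusted p = 0.339) without DMSO 48 h replicate 2. DESeq2 with 12 libraries called MTHFD1 lower at 48 h (log2 fold change -1.11, adjusted p = 0.0446), in a fit that called 177 genes lower and 2.45% of all genes in either direction. Without DMSO 48 h replicate 2, DESeq2 called 24 genes lower, and MTHFD1, at -1.10 with an adjusted p of 0.181, was not among them. Over all alternatives the adjusted p ranged from 0.0446 to 0.519. At 24 h the fold change was -0.23 ± 0.34, and the difference between the 48 h and 24 h effects was -0.87 ± 0.48 (edgeR, adjusted p = 0.808). Each library held 31 to 365 MTHFD1 counts. ZBTB25, which overlaps an exon on the opposite strand, had 699 counts over all libraries against 1506 for MTHFD1. The strand setting of the counting is not given in the sources used here. Reads from the overlap may have been counted for either gene or set aside as matching both.

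MTHFD2, the mitochondrial dehydrogenase and cyclohydrolase, was the member with the largest increase at 24 h apart from ALDH1L2. It gave 31.6, 26.9 and 38.7 CPM with DMSO and 51.5, 44.4 and 33.1 CPM with Molidustat at 24 h, and the groups overlapped. The log2 fold change was 0.40 ± 0.32 (edgeR, adjusted p = 0.999) at 24 h and -0.31 ± 0.33 (adjusted p = 0.753) at 48 h, where the levels were 44.7, 64.7 and 36.8 CPM with DMSO and 39.2, 33.8 and 42.9 CPM with Molidustat. The 64.7 CPM is that of replicate 2, and without it the log2 fold change at 48 h was -0.087 ± 0.32 (adjusted p = 0.997). A protein-coding gene on the opposite strand that shares exon sequence with MTHFD2 had 705 counts against 2312. The log2 ratio of MTHFD2 to MTHFD1 in a library was 0.98 to 1.59 with Molidustat and -0.032 to 0.98 with DMSO at 48 h, and 0.41 to 1.31 and 0.021 to 0.55 at 24 h. The ratios were chosen after the levels had been seen and are given as a description.

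MTHFD1L, the mitochondrial formyl-tetrahydrofolate synthetase, measured 27.5, 16.5 and 9.26 CPM with DMSO and 13.6, 22.9 and 17.2 CPM with Molidustat at 24 h. At 48 h it measured 9.86, 44.5 and 16.0 CPM with DMSO and 17.2, 14.1 and 14.4 CPM with Molidustat. The 44.5 CPM is again replicate 2, and the log2 fold change at 48 h was -0.53 ± 0.54 with it and 0.23 ± 0.48 without it. ALDH1L2 had 0 to 36 counts per library and 128 in all. WASHC4 and NOPCHAP1, which overlap its exons on the opposite strand, had 2515 and 1875. With the strand setting not given, reads from the overlaps may have been counted for any of these genes or set aside as matching several. ALDH1L2 was at 0 in 4 libraries, 1 in each group, where 0 counts allow up to 0.588 to 2.0 CPM before TMM scaling, for counting error only. Its log2 fold changes were 0.75 ± 1.59 and 0.57 ± 1.5, so neither a large increase nor a large decrease could be detected at this depth.

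Read over the group, 0 of the 9 genes were called at 24 h, where 0.231% of the 14274 genes tested were called. At 48 h it was again 0 of 9, beside 0.231%. Without DMSO 48 h replicate 2, 15253 genes were tested and 0 of 9 were called at both times, beside 0.761% at 24 h and 0.347% at 48 h. With 12 libraries DESeq2 called 0 of 9 at 24 h (1.02% of all genes). At 48 h it called 1, MTHFD1, of the 8 members it gave an adjusted p (2.45% of all genes), ALDH1L2 having none. DESeq2 without replicate 2 called 0 at 24 h (1.51%) and 0 at 48 h (1.13%). The limma-voom fit with sample quality weights called 0 at 24 h (0.448%) and 0 at 48 h (1.95%). All 9 genes passed the filter on low counts. An unadjusted p under 0.05 was reached by 0 of 9 genes at 24 h (5.25% of all genes) and by MTHFD1 and PSPH at 48 h (13.3%), and without replicate 2 by 0 of 9 (9.03%) and by MTHFD1 alone (6.6%). Groups did not overlap for PHGDH at 24 h (12.3% of all genes) and for MTHFD1 at 48 h (18.0%), and without replicate 2 for MTHFD1 and PSAT1 at 48 h (28.2%).

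The median log2 fold change of the 9 genes was -0.017 at 24 h and -0.19 at 48 h with 12 libraries, and -0.0025 and -0.087 without DMSO 48 h replicate 2. Apart from ALDH1L2, the upper ends of the 95% intervals with 12 libraries lay between 1.17-fold and 2.22-fold at 24 h, and between 0.775-fold and 1.86-fold at 48 h. Without DMSO 48 h replicate 2 they lay between 1.129-fold and 2.024-fold at 24 h, and between 0.761-fold and 2.355-fold at 48 h. The difference between the 2 effects was called for 0 of 9 genes, where 0.0% of all genes were called with 12 or 11 libraries. It had an unadjusted p under 0.05 for 0 of 9, beside 6.78%, and DESeq2 (0.056% of all genes) and limma-voom (0.0%) also called 0 of 9.

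**Figure D2:**
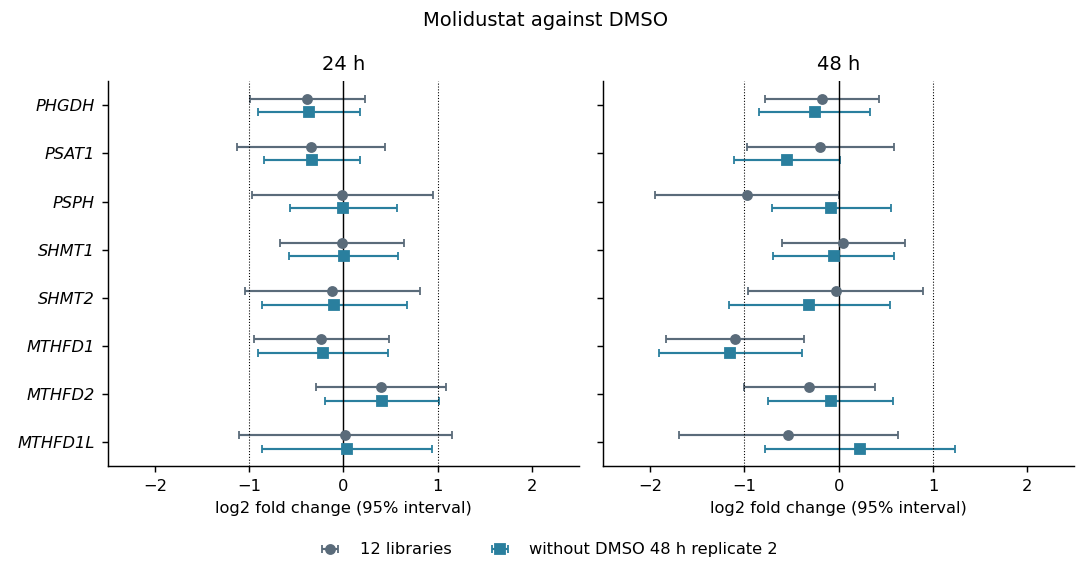
Log2 fold change of Molidustat against DMSO with its 95% interval (horizontal axes) for 8 genes at 24 h and at 48 h, with 12 libraries (circles) and without DMSO 48 h replicate 2 (squares). Dotted lines mark 1 and -1, ALDH1L2 is left out because its intervals run beyond the axis, and the PSPH value at 48 h moves from -0.97 to -0.082 between the fits.

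Between 24 h and 48 h PHGDH was the member that differed most, apart from ALDH1L2. In DMSO the log2 fold change was 0.90 ± 0.29 (edgeR, unadjusted p = 0.00659, adjusted p = 0.541). In Molidustat it was 1.11 ± 0.29 (unadjusted p = 0.00149, adjusted p = 0.925). Neither passed the adjustment, and without DMSO 48 h replicate 2 the values were 0.998 and 1.11 with adjusted p of 0.755 and 0.156. The 48 h libraries of both treatments were all above the 24 h libraries, which held for 0.28% of all genes with 12 libraries and for 0.885% without replicate 2.

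The average of the 2 time comparisons was therefore fitted as well, a contrast chosen after this pattern had been seen, so its p does not count as independent evidence. PHGDH was 2.01-fold higher at 48 h (95% interval 1.49 to 2.71, adjusted p = 0.177 by edgeR with 12 libraries), and was not called. Without DMSO 48 h replicate 2 it was 2.07-fold higher (95% interval 1.57 to 2.73, adjusted p = 0.0237) and was called, the only 1 of the 9. In that contrast 0.021% of all genes were called with 12 libraries and 0.177% without replicate 2. An unadjusted p under 0.05 was reached by PHGDH alone with 12 libraries (6.32% of all genes) and again without replicate 2 (9.72%). The log2 fold change was 0.88 to 1.06 over 20 alternatives, of which 4 gave an adjusted p under 0.05. These were edgeR without replicate 2, DESeq2, which called 0.35% of all genes, limma-voom with sample quality weights (0.273%) and DESeq2 without replicate 2 (0.564%). Time of treatment and any other difference between the 24 h and 48 h libraries cannot be told apart.

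No other member reached an unadjusted p under 0.05 between the times. In DMSO 0 of 9 genes were called between the times (0.00701% of all genes), and in Molidustat 0 of 9 (0.0%). Without replicate 2 these were again 0 of 9, beside 0.0131% and 0.0262%. With 12 libraries DESeq2 called 0 of 9 in DMSO (0.28%) and in Molidustat (0.0841%), and limma-voom 0 of 9 in DMSO (0.014%) and in Molidustat (0.00701%). DESeq2 without replicate 2 called PHGDH in Molidustat (adjusted p = 0.00852), beside 0.57% of all genes. PHGDH alone had an unadjusted p under 0.05 in DMSO (8.14% of all genes, and 4.03% without replicate 2) and in Molidustat (4.58% and 9.24%). The DMSO groups did not overlap for PHGDH and MTHFD1 (12% of all genes). Without replicate 2, when 2 libraries remain at 48 h, they did not overlap for 6 of 9 (22.9%). In Molidustat only the PHGDH groups did not overlap (13.9%). The summed level of the 9 genes was 476 ± 28.4 CPM (SD, n = 3) in DMSO 24 h, 441 ± 58.9 in Molidustat 24 h, 655 ± 109 in DMSO 48 h and 493 ± 51.2 in Molidustat 48 h. The DMSO 48 h libraries were at 567, 777 (replicate 2) and 621 CPM, above the highest Molidustat library at 48 h (545 CPM) with or without replicate 2. At 24 h the sums overlapped. The sum was not tested and has no share over all genes to set beside it. The comparisons of treatments and of times share libraries, so their values are not independent of each other.

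**Figure D3:**
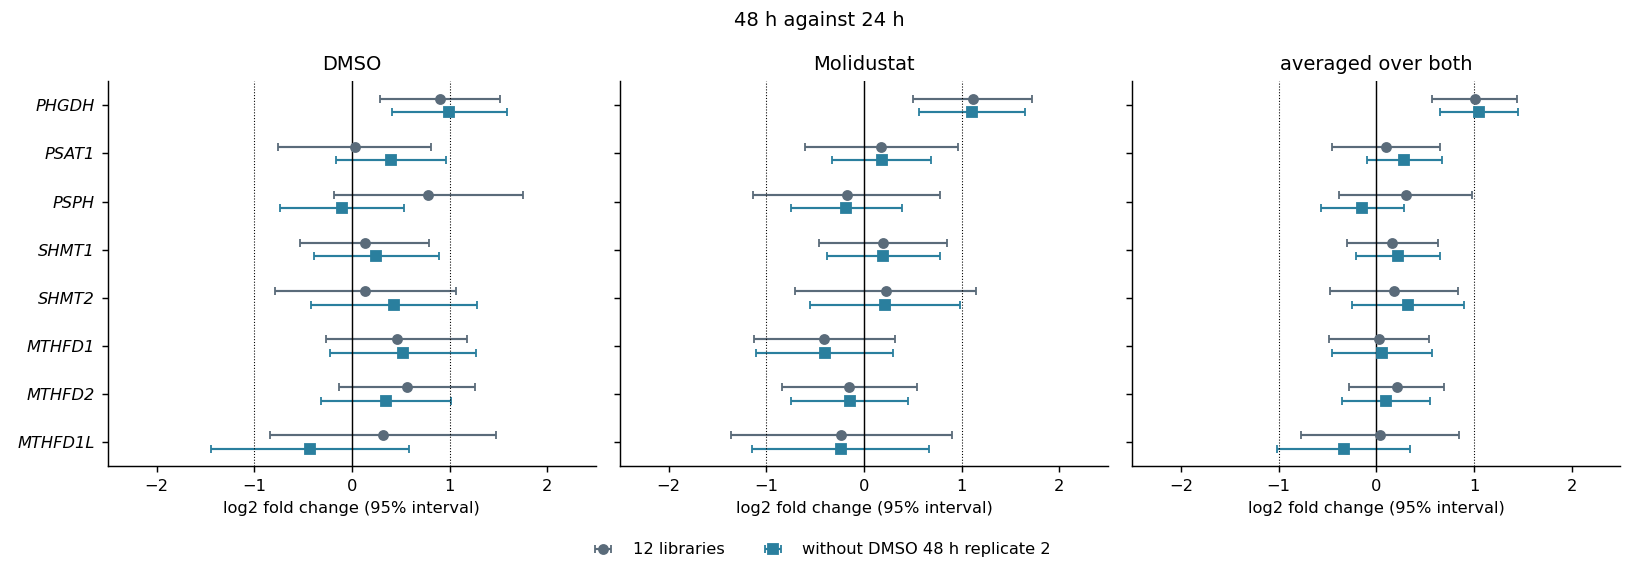
Log2 fold change of 48 h against 24 h with its 95% interval (horizontal axes) for 8 genes in DMSO, in Molidustat and averaged over both, with 12 libraries (circles) and without DMSO 48 h replicate 2 (squares). The PHGDH intervals lie above 0 in all 3 panels, and each of the other intervals includes 0.

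Most pairs of members were weakly correlated. Over the 11 libraries without DMSO 48 h replicate 2, Pearson's r of log2 CPM for the 36 pairs had a median of 0.12 and ran from -0.48 (PSAT1 and PSPH) to 0.62 (PSAT1 and MTHFD1). It exceeded 0.5 in 4 pairs, among them PHGDH with PSAT1 (0.52) and SHMT1 with SHMT2 (0.61), and was negative in 15. With all 12 libraries the median was 0.12 and the range -0.79 (PSAT1 and PSPH) to 0.69 (PSPH and MTHFD2, at 0.31 over the 11). PSAT1 then gave 0.18 with PHGDH and 0.18 with MTHFD1, so these correlations turn on that library. The 2 tested genes most like PHGDH over the 11 libraries were CPB2, a liver carboxypeptidase (r = 0.96), and CYSTM1 (r = 0.95). Those most like MTHFD1 were HP, which encodes haptoglobin (0.93), and TUBGCP3 (0.90), and for MTHFD2 they were TRABD2B (0.93) and ATP8B3 (0.92). For the remaining members the highest r was 0.85 to 0.94. These libraries share treatments and times, and the highest correlation over all tested genes and 11 points is given as a description.

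The genes around the pathway were taken from lists. Among 15 other folate enzymes and transporters, 13 were tested and 0 were called at either time by edgeR, and the highest by mean CPM were MTHFS and GGH. Their log2 fold changes were -0.33 ± 0.41 and -0.037 ± 0.34 at 24 h, and 0.46 ± 0.41 and 0.38 ± 0.34 at 48 h, with 12 libraries. Without DMSO 48 h replicate 2 the values at 48 h were 0.054 ± 0.27 and 0.18 ± 0.30. None of 15 tested genes of glycine cleavage and of serine or glycine use was called, nor any of 13 of the methionine cycle and transsulfuration, nor any of 11 of de novo purine synthesis. The share of all genes called by edgeR was 0.231% at each time, so a count of 0 in lists of 11 to 15 genes is near the background. DESeq2 and limma-voom with 12 libraries called 0 in these lists too, except that limma-voom called the folate transporter SLC46A1 higher at 48 h, where it called 1.95% of all genes. Of the 11 purine genes, 9 had a negative log2 fold change at 48 h with 12 libraries, with a median of -0.27, and 10 without replicate 2, with a median of -0.31. An unadjusted p under 0.05 was reached at 48 h by 4 of the 11 with 12 libraries (13.3% of all genes) and by 0 without replicate 2 (6.6%). When DMSO 48 h replicate 1 was left out, 55 of 14958 genes were called higher and 272 lower at 48 h, among them 1 purine gene. This was PFAS, named after its values were seen, with an adjusted p of 0.045 that became 0.994 without replicate 2.

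Among the 11 tested transporters of serine and glycine, 0 were called with 12 libraries (0.231% of all genes at each time) or without replicate 2 (0.761% and 0.347%), which is near the background for a list of this size. SLC38A2, a neutral amino acid carrier induced by amino acid shortage, was at 206, 3660 and 265 CPM in DMSO 48 h and at 214, 213 and 259 CPM in Molidustat 48 h. The library at 3660 CPM is replicate 2, and the log2 fold change of -2.59 ± 0.81 became -0.056 ± 0.34 without it. SLC38A2 was called at 48 h when DMSO 48 h replicate 1 or replicate 3 was left out, which leaves replicate 2 as 1 of 2 controls, and in no other fit with 1 library left out. The fit without replicate 1 called 55 genes higher and 272 lower of 14958 at 48 h. The fit without replicate 3 called 46 higher and 152 lower of 14934. SFXN1, the mitochondrial serine carrier, was at 1396 CPM in DMSO 48 h replicate 2 and at 214 to 363 CPM in the other libraries.

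Of 27 ATF4 and amino acid response targets that are not among the 9 genes, 0 were called by edgeR with 12 libraries and 1 at each time without replicate 2. The shares of all genes called were 0.231% at each time with 12 libraries, and 0.761% at 24 h and 0.347% at 48 h without replicate 2. The gene was STC2, a secreted glycoprotein, which with 12 libraries was also called by DESeq2 (1.02% of all genes at 24 h, 2.45% at 48 h) and at 48 h by limma-voom (1.95%). It measured 5.04, 0.384 and 4.32 CPM with DMSO and 20.7, 19.7 and 19.3 CPM with Molidustat at 24 h, and 4.86, 5.30 and 4.63 CPM against 33.8, 29.1 and 35.8 CPM at 48 h. The log2 fold changes without replicate 2 were 2.54 ± 0.52 (adjusted p = 0.0221) and 2.77 ± 0.58 (adjusted p = 0.0481). The call at 24 h was made in 1 of the 12 fits with 1 library left out and the call at 48 h in 3. The median of the list without replicate 2 was -0.046 at 24 h and -0.10 at 48 h, and with 12 libraries it was -0.058 and -0.025.

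Of the glycolytic genes around 3-phosphoglycerate, PGK1 was called at both times with 12 libraries. PGK1, which forms 3-phosphoglycerate, measured 73.7, 71.8 and 74.9 CPM with DMSO and 475, 707 and 352 CPM with Molidustat at 24 h. The 48 h values were 87.5, 164 and 104 CPM against 435, 426 and 539 CPM, and the groups did not overlap at either time. It rose by 2.80 ± 0.36 on the log2 scale at 24 h (adjusted p = 0.00112) and by 1.99 ± 0.35 at 48 h (adjusted p = 0.0235). The call at 24 h was kept whichever library was left out. The call at 48 h was lost when any 1 of the 3 Molidustat 48 h libraries was left out, with an adjusted p of up to 0.134 and a log2 fold change of at least 1.83 over the 12 fits. With 12 libraries it was the 1 gene called by edgeR of 8 tested, and DESeq2 called 6 of 8 at each time, beside 1.02% and 2.45% of all genes. Without replicate 2, 6 of 8 were called at 24 h and 2 of 8 at 48 h, beside 0.728% and 0.315% of all genes called higher. The 6 were PGK1, GAPDH, which acts just before it, PGAM1, ENO1 and ENO2, which act after it, and PKM. ENO2 passed the filter on low counts only through the Molidustat libraries, with 12 libraries as well as without replicate 2. Leaving ENO2 out, edgeR called 1 of 7 at each time with 12 libraries. Without replicate 2 it then called 5 of 7 at 24 h and 2 of 7 at 48 h. The 8 genes of the DESeq2 counts include ENO2. ENO2 was at 0 in DMSO 24 h, and against a floor of 3 counts over that group it was at least 23.6-fold higher with Molidustat. The median log2 fold change of the 8 genes was 1.60 at 24 h and 1.37 at 48 h with 12 libraries, and 1.62 and 1.15 without replicate 2. With 12 libraries the median at 24 h stayed at 1.60 with ENO2 at its bound. Leaving ENO2 out, the medians at 48 h were 1.2 with 12 libraries and 0.99 without replicate 2.

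HIF target genes were called in 6 of 12 tested at 24 h and in 2 of 12 at 48 h, beside 0.231% and 0.21% of all genes called higher. Without DMSO 48 h replicate 2 they were 8 of 13 and 3 of 13, beside 0.728% and 0.315%. The added gene, CA9, passed the filter only through Molidustat libraries and was not called. Leaving out 1 library gave 2 to 8 calls at 24 h and 1 to 3 at 48 h. At 24 h it was 2 without DMSO 24 h replicate 1 or 2 and 3 without Molidustat 24 h replicate 1, and at 48 h it was 1 without any 1 of the 6 Molidustat libraries. BNIP3 was called at both times in all 12 of these fits. BNIP3, a mitophagy receptor, measured 103 to 196 CPM over the DMSO libraries at 24 h and 971 to 1227 CPM with Molidustat, and rose by 2.81 ± 0.34 on the log2 scale (adjusted p = 0.000977). LDHA, the muscle-type lactate dehydrogenase, measured 238 to 249 CPM with DMSO and 1033 to 1755 CPM with Molidustat, and rose by 2.48 ± 0.38 (adjusted p = 0.00577). PFKFB4, PDK1, P4HA1 and SLC2A1 were the others called at 24 h. BNIP3 and PFKFB4 were called at 48 h. LDHA was not called at 24 h when any 1 of the 3 DMSO 24 h libraries was left out, with an adjusted p of up to 0.0848. Of the 12 fits with 1 library left out, PFKFB4 was called in 12 at 24 h and in 6 at 48 h, P4HA1 in 8, PDK1 in 7 and SLC2A1 in 6. The median of the list was 2.06 at 24 h and 1.64 at 48 h, beside medians of -0.017 and -0.19 for the 9 serine and one-carbon genes. Without replicate 2 the medians of the list were 2.14 and 1.55, beside -0.0025 and -0.087. With CA9 left out as well, the medians of the list were 2.06 and 1.55.

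Of the 10 liver markers, 2 were called higher at each time without replicate 2, beside 0.728% (24 h) and 0.315% (48 h) of all genes. With 12 libraries edgeR called 0 of the 10. These were SERPINA1 and TF, at 1.16 ± 0.22 and 1.27 ± 0.19 on the log2 scale at 24 h. Without replicate 2, 8 of the 10 had a positive and 2 a negative log2 fold change at each time. The medians of the 10 were 0.43 and 0.69, against 0.42 and 1.09 with 12 libraries. In the fit without replicate 2, an unadjusted p under 0.05 was reached by 4 with a positive change at 24 h. At 48 h it was reached by 5 with a positive and 1 with a negative change. The last was APOB, named after its values were seen, at -0.67 ± 0.25 (edgeR, adjusted p = 0.529). Of all 15253 genes tested, 944 had an unadjusted p under 0.05 with a positive and 434 with a negative change at 24 h. At 48 h these were 561 and 445. Of the 10 markers of other cells, 5 were tested and 0 called. Without replicate 2, 4 of the 5 had a positive change at each time, with medians of 0.50 at 24 h and 0.65 at 48 h, and 2 and 1 had an unadjusted p under 0.05. With 12 libraries the medians of the 5 were 0.49 and 0.93. KRT19 was at 43.8 to 62.5 CPM with DMSO and 74.3 to 108 CPM with Molidustat at 24 h. Whether either list of markers has a part in the levels of the 9 genes was not tested.

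The sequence before the start of transcription was read for the genes these comparisons turn on, to show beside the values which of them hold the core of a HIF response element. The windows come from RefSeq (GRCh38.p14), in which 6 of the 9 genes had an entry (PHGDH, PSAT1, SHMT1, MTHFD1, MTHFD2 and MTHFD1L). The 200 bases before each start were searched on both strands for ACGTG and GCGTG, the usual cores, for CACGTG, which contains the first of these and is also the E-box of other factors, for TGATGNAA, a core of ATF4 and C/EBP composite elements, and for CCAAT. Of 35116 windows, 15.6% held ACGTG, 28.2% GCGTG, 5.49% CACGTG, 2.57% TGATGNAA and 28.0% CCAAT. At least 1 of the HIF cores was found before a start of 3 of the 6 genes (MTHFD1, MTHFD2 and MTHFD1L, which has 4 starts), beside 38.1% of all windows. Of the 6 genes, 5 held CCAAT, 2 CACGTG and 1 TGATGNAA before a start. A gene was counted if any of its starts had a match, while the shares are of single windows. The counts and shares are therefore not alike for a gene with several starts such as MTHFD1L. LDHA held ACGTG at 3 places before its first start, and PGK1 held it at 1.
The stretches of 30 bases below show these letters in capitals, on the plus strand, with the position of the first base counted from the start.
PHGDH, chr1:119711853-119711882, from -81, with CCAAT and neither core in its window: gtatttccgtCCAATcaaaaggagactgta
MTHFD1, chr14:64388323-64388352, from -30, with CACGTG: tggccagtccctaagCACGTGggttgggtt
MTHFD2, chr2:74198582-74198611, from -33, with GCGTG: cagtataaccGCGTGgcccgcgcgcgcgct
LDHA, chr11:18394466-18394495, from -97, with CACGTG and a reversed ACGTG: gcccgactcaCACGTGggttcccgCACGTc
LDHA rose with Molidustat at 24 h. MTHFD1 was at -0.23 at 24 h and -1.10 at 48 h on the log2 scale and was called at neither by edgeR. MTHFD1L, which also holds CACGTG, was at 0.020 and -0.53 with 12 libraries and at 0.23 at 48 h without DMSO 48 h replicate 2. It was called at neither time. Whether these letters bear on the levels was not tested. A match of letters is a description of the window, and binding was not measured here.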

How the data were processed

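The 12 libraries were grouped by treatment and time from the labels. Per the labels and the methods, the authors made 3′ libraries, trimmed reads with cutadapt 1.9.1, aligned them to GRCh38 with STAR 2.7.9a and obtained read numbers for each gene with HTSeq 0.11.2. The deposited files hold these unnormalized counts. The annotation release, the strand setting and any use of molecular identifiers are not given in the sources used here, so PCR copies may be counted and limits set by 0 counts cover counting error only. The 5 summary lines per file were left out of library sizes and tests. They include the reads matched to no counted feature, 17.1 to 25.6% of all listed in 11 libraries and 50.4% in DMSO 48 h replicate 2. Replicates differed by more than sampling noise.

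The filter filterByExpr (minimum count 10, minimum total 15) left 14274 of 28430 genes that had a count. One quasi-likelihood model with TMM scaling was fitted to the 4 groups with edgeR 4.0.16 in R 4.3.3, and Benjamini-Hochberg adjustment ran over all genes. Calls needed an adjusted p below 0.05 together with an absolute log2 fold change over 1. Standard errors were derived from the F statistic and 95% intervals from the t distribution. Correlations used log2 CPM (prior count 2). All 9 genes are described in full. From every other list, genes called in a Molidustat comparison (at most 6) and the 2 with the highest mean CPM could be named. Outside this rule, APOB, PFAS, SLC46A1 and CA9 and the cell type markers CD3E, VWF and COL1A2 were named after their values were seen. The members and lists were chosen with earlier results of these data known.

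Alternatives were DESeq2 1.42.0, limma-voom (limma 3.58.1) with sample quality weights, RLE factors, total counts, no filter, at least 10 counts in every library, the replicate block, the 6 libraries of a comparison alone, no fold threshold, and each library left out. DESeq2 without DMSO 48 h replicate 2 and the averaged time comparison were added after the data were seen. The tests were also run on simulated data, whose outcome is not given here. Plots were made with matplotlib 3.10.9 (Python 3.11.15). Proteins, metabolites and RT-qPCR were not analysed here.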

Additional observations from a re-analysis of the deposited data

How the results depend on the processing

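The count of called members stayed at 0 in the 2 treatment, 2 time and difference comparisons under the alternatives listed above, except that DESeq2 called 1 (MTHFD1) with Molidustat at 48 h. All 9 members were tested, apart from ALDH1L2, which could not be fitted with at least 10 counts in every library or with the 6 libraries alone at 24 h and over time in DMSO, and which DESeq2 gave no adjusted p at 48 h with 12 libraries and over time on average without DMSO 48 h replicate 2. The 6 libraries of a comparison alone give no difference of effects. DESeq2 without DMSO 48 h replicate 2 called 1 (PHGDH) over time in Molidustat, with an adjusted p of 0.00852. In the averaged time comparison 1 member (PHGDH) was called by DESeq2, by limma-voom and by DESeq2 without DMSO 48 h replicate 2, and 0 to 1 when a library was left out, the 1 being without DMSO 48 h replicate 2. With 1 library left out, 2 to 8 HIF and 1 to 6 glycolytic genes were called at 24 h and 1 to 3 and 0 to 2 at 48 h, and 0 to 1 ATF4 target at each time. At 48 h 0 to 1 transporter (SLC38A2) and 0 to 1 purine gene (PFAS) were called, and with no filter on low counts 1 each. The fit with no filter called 154 of 28430 genes higher and 610 lower at 48 h. DESeq2 with 12 libraries called 9 and 6 HIF genes and 6 and 6 glycolytic genes at 24 h and 48 h, and limma-voom 6 and 9 HIF genes and 5 and 5 glycolytic genes. The glycolytic genes tested include ENO2, which passed the filter on low counts only through Molidustat libraries. No other member had an adjusted p under 0.05 in any alternative. The replicate numbers were not taken to pair the libraries: the deviations of same-numbered libraries correlated at -0.090 to 0.14, over 0.1 in 3 of 18 pairs, and the replicate block changed no call of a member. The changes of sign below concern members that were not called, and their cause was not tested.

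With limma-voom the log2 fold change was of the other sign for PSAT1 -0.11 and MTHFD1L 0.20 for the difference of effects, PSPH 0.075, MTHFD1L -0.027 and ALDH1L2 -0.20 with Molidustat at 24 h, PSPH -0.017 and MTHFD1L -0.28 over time on average, SHMT1 -0.020, MTHFD1L 0.17 and ALDH1L2 -0.83 with Molidustat at 48 h, MTHFD1L -0.38 over time in DMSO. With DESeq2 without DMSO 48 h replicate 2 the log2 fold change was of the other sign for PSAT1 -0.16, SHMT2 -0.15 and MTHFD1L 0.25 for the difference of effects, PSPH -0.15 and MTHFD1L -0.48 over time in DMSO, PSPH -0.16 and MTHFD1L -0.35 over time on average, SHMT1 -0.0045 and MTHFD1L 0.27 with Molidustat at 48 h. With total counts the log2 fold change was of the other sign for PSAT1 -0.051, SHMT1 -0.030 and MTHFD1L -0.059 over time in DMSO, SHMT2 0.045 with Molidustat at 48 h, MTHFD1 -0.046 and MTHFD1L -0.14 over time on average, MTHFD1L -0.042 with Molidustat at 24 h. With the replicate block the log2 fold change was of the other sign for PSAT1 -0.043 over time in DMSO, ALDH1L2 0.054 for the difference of effects. With no filter the log2 fold change was of the other sign for PSPH 0.0095 and SHMT1 0.0053 with Molidustat at 24 h. With at least 10 counts in every library the log2 fold change was of the other sign for PSPH 0.021 and SHMT1 0.024 with Molidustat at 24 h, SHMT2 0.021 with Molidustat at 48 h. Leaving out each library in turn gave these ranges. PHGDH ranged from -0.28 to 0.036 with Molidustat at 48 h. PSAT1 ranged from -0.55 to 0.013 with Molidustat at 48 h, -0.22 to 0.36 for the difference of effects, -0.20 to 0.40 over time in DMSO, -0.022 to 0.29 over time on average. PSPH ranged from -0.21 to 0.34 with Molidustat at 24 h, -0.10 to 1.13 over time in DMSO, -0.14 to 0.47 over time on average. SHMT1 ranged from -0.19 to 0.082 with Molidustat at 24 h, -0.15 to 0.22 with Molidustat at 48 h, -0.13 to 0.25 for the difference of effects, -0.043 to 0.25 over time in DMSO, -0.014 to 0.37 over time in Molidustat. SHMT2 ranged from -0.79 to 0.19 with Molidustat at 24 h, -0.31 to 0.19 with Molidustat at 48 h, -0.23 to 0.74 for the difference of effects, -0.11 to 0.43 over time in DMSO, -0.11 to 0.88 over time in Molidustat. MTHFD1 ranged from -0.13 to 0.079 over time on average. MTHFD1L ranged from -0.31 to 0.49 with Molidustat at 24 h, -0.90 to 0.23 with Molidustat at 48 h, -1.01 to 0.19 for the difference of effects, -0.43 to 0.75 over time in DMSO, -0.33 to 0.25 over time on average. ALDH1L2 ranged from -0.80 to 1.36 with Molidustat at 24 h, -0.043 to 1.15 with Molidustat at 48 h, -0.81 to 1.36 for the difference of effects.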
